A study of Mus musculus with 70 samples.

Results

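CTCF binding in the liver of E12.5 mouse embryos (LV; E, embryonic day) was compared with 6 other tissues of that age. These were 4 neural tissues, the forebrain (FB), the midbrain (MB), the hindbrain (HB) and the neural tube (NT), together with the limb (LM) and the craniofacial prominence (CF). Peaks of the 7 tissues were merged into 72232 sites at an overlap of 1 bp. LV-only peaks are the 3345 LV peaks, of 45435, that overlapped no peak of the 6 other tissues. LV-absent sites are the 2446 sites that were listed in all 6 other tissues and not in LV. The reference class was the 29175 sites listed in all 7 tissues, called all-7 sites here. The series holds 70 libraries, and 14 of them gave the CTCF lists of this comparison, with 2 libraries pooled per tissue. All tissues came from C57BL/6N embryos, and neither the labels nor the methods name a mutation or a treatment. The LV libraries are technical replicates of 1 sample, whereas the other tissues have 2 biological replicates each, so the LV list carries no spread between embryos. LV replicate 1 and both HB libraries were sequenced on a second machine as well, with single and paired-end reads. H3K4me3 PLAC-seq, which maps chromatin contacts at active and poised promoters, was available for the same tissues with 2 biological replicates each.

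CTCF recognises a long, directional sequence motif through its zinc fingers and stops cohesin as it extrudes chromatin loops, so that pairs of sites with motifs facing each other often anchor a loop. Most CTCF sites are shared among cell types. Binding at a part of them is sensitive to methylation of CpG bases within the motif. The fetal liver at this age is a site of blood formation, in which maturing red cells lie among hepatoblasts, the precursors of hepatocytes. The tissues are bulk samples, in which fewer cells of a type and less binding per cell cannot be told apart.

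Named members of both classes with a motif and a high fold enrichment are shown first, so that the motif can be seen beside the values given further on. Each line gives 79 bases of the mm10 assembly from RefSeq, written 5′ to 3′ on the strand of the motif, with the 19-base CTCF motif match in capitals. The first 4 named LV-only peaks lay nearest to Adgrg1 (chr8:94985102-94985180, plus strand), Slc25a21 (chr12:57194824-57194902, minus strand), Ugcg (chr4:59263594-59263672, minus strand) and Kel (chr6:41728386-41728464, minus strand).
Adgrg1, LV-only: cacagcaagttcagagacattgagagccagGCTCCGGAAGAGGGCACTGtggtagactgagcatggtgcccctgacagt
Slc25a21, LV-only: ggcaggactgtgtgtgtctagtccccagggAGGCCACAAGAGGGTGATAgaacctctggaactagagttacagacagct
Ugcg, LV-only: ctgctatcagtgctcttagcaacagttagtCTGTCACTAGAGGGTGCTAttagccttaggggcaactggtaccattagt
Kel, LV-only: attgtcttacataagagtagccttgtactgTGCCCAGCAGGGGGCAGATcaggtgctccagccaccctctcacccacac

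The first 4 named LV-absent sites, of which 2 (Pou3f3 and Pou3f2) were in a second deposited LV list, lay nearest to Pou3f3 (chr1:41810468-41810546, plus strand), Map2 (chr1:66104726-66104804, plus strand), Phactr1 (chr13:42623621-42623699, plus strand) and Pou3f2 (chr4:22477279-22477357, plus strand).
Pou3f3, LV-absent: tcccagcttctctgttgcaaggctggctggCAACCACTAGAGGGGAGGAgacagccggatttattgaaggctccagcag
Map2, LV-absent: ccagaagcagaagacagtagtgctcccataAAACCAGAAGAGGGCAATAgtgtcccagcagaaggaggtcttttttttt
Phactr1, LV-absent: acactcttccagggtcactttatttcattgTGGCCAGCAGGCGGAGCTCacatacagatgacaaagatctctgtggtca
Pou3f2, LV-absent: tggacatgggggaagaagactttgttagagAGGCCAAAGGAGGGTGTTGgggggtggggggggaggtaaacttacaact

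LV stood apart from the other tissues both in the sites it lacked and in the strength of the sites it held alone. The 2446 LV-absent sites compared with 274 to 694 sites absent from one other tissue alone. The 3345 LV-only peaks, 7.36% of the LV list, were close in number to the 3346 peaks found only in LM and the 3052 found only in CF, and FB had the fewest, 842. This closeness depended on the lengths of the lists. With the 43000 strongest peaks of each list, 3388 were LV-only, against 1142 to 1828 in the others. Of any pair of lists, LV shared 63.3% to 67.4% of the merged sites with another tissue, against 68.0% to 73.1% between 2 others. At all-7 sites, the Pearson correlation of log2 fold enrichment across sites was 0.67 to 0.74 between LV and another tissue and 0.83 to 0.88 between 2 others. These correlations are across sites, which share libraries and are not independent replicates. With 1 pooled list per tissue, exchanging LV among the 7 tissues allows no p below 1 in 7, and no test is given for these counts.

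Fold enrichment over input, the signal at a peak relative to the input DNA, separated LV-only peaks from the single-tissue peaks of the other tissues in the upper tail and not in the median. The median was 4.19 for LV-only peaks and 3.78 to 4.39 for the single-tissue peaks of the others. It was 0.28 times the LV median of 14.95 at all-7 sites, and the same ratio ran from 0.255 to 0.288 in the others. The highest LV-only value was 25.7, whereas the highest values of single-tissue peaks elsewhere lay between 7.10 and 10.6. A fold enrichment of at least 8 was reached by 164 LV-only peaks, by 6 LM-only and 5 CF-only peaks, and by 0 to 2 in the remaining tissues. 17 LV-only peaks exceeded the median of their own tissue at all-7 sites, and 0 did so in each other tissue.

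LV-absent sites were stronger than the sites missing from other tissues. The median of their mean fold enrichment in the 6 tissues that held them was 7.32, or 0.483 times that of all-7 sites. For sites absent from one other tissue the ratio was 0.395 to 0.428. At 263 LV-absent sites every one of the 6 tissues reached at least 8, compared with 0 to 12 sites absent from another tissue. The difference reached sites bound everywhere. After each tissue was divided by its median, 474 all-7 sites had an LV value at least 2 times the highest of the others and 619 a value at most 0.5 times the lowest. No other tissue had more than 2 of the former or 29 of the latter.

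**Figure D1:**
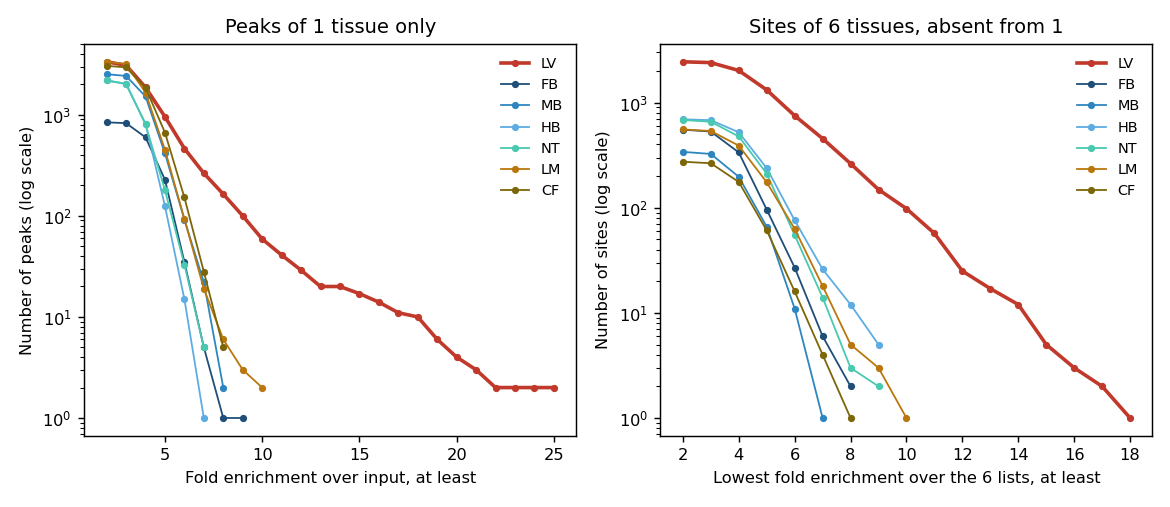
Number of peaks listed in 1 tissue only (left) and of sites absent from 1 tissue only (right) that reach each fold enrichment over input on the x axis, for each of the 7 tissues at E12.5, with a log scale on the y axis. At a fold enrichment of at least 8 the LV curve holds 164 peaks on the left and 263 sites on the right, while no other tissue exceeds 6 peaks or 12 sites.

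Peaks close to the boundary of the rule were weak. Of the LV-only peaks, 644 had a peak of another tissue within 250 bp, with a median fold enrichment of 3.89, and 913 had none within 10 kb, with a median of 4.49. The 70 LV peaks whose longest overlap with another list was 1 to 20 bp had a median of 3.59. Sites of LV and a single other tissue, 1760 in all, had an LV median of 4.79. On the other side, 1927 sites were listed in 5 of the 6 others and not in LV, with a median of 5.67, and 534 all-7 sites had an LV value below 4.

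Lists of FB at the 5 later stages, E13.5 to P0, held few LV-only peaks and most LV-absent sites. The rule did not use these lists, but it used FB at E12.5 as 1 of the 6 other tissues. The outcome therefore largely follows from the rule and is a description only. They contained 6.40% to 18.5% of LV-only peaks and 89.3% to 97.4% of LV-absent sites, against 96.9% to 99.7% of all-7 sites. Peaks found only in FB at E12.5 were found again in 16.7% to 35.6% of cases. None of the 5 later lists held 2103 (62.9%) of the LV-only peaks, compared with 318 (37.8%) of FB-only and 1794 (53.6%) of LM-only peaks. Only 1 LV-absent site was in none of them, and 1954 (79.9%) were in all 5. A second deposited list per tissue, with other numbers of peaks, listed 71.7% of LV-only peaks in LV, and 63.9% in LV and nowhere else. Of the 164 peaks with a fold enrichment of at least 8, it listed 163 in LV and 142 in LV alone. The second LV list lacked 82.3% of the LV-absent sites, and 62.8% were called LV-absent again. Of the 263 LV-absent sites with at least 8 in all 6 tissues it lacked fewer, 202 (76.8%), and 200 (76.0%) were called again.

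The CTCF motif was found in 56.9% of LV-only peaks, 78.8% of LV-absent sites and 93.0% of all-7 sites. The search covered the whole peak of highest fold enrichment at a site. A wider peak gives more room for a match, and peak widths were not matched between the classes. Single-tissue peaks elsewhere had it in 52.5% to 67.3% of cases, and sites absent from another tissue in 86.8% to 91.6%. Motif matches of LV-only peaks had a median score of 17.2, against 17.5 at all-7 sites and 14.3 to 16.7 at the other single-tissue peaks. The 164 LV-only peaks with a fold enrichment of at least 8 had a motif in 79.3% of cases, with a median score of 15.4. Those below 8 had a motif in 55.8%, with a median score of 17.3. The matches of LV-absent sites were weaker, with a median of 14.5, against 16.9 to 18.2 at sites absent from another tissue. The score sums log-odds over the 19 positions of a matrix estimated from all-7 sites. A CpG within the motif was present in 31.9% of LV-only and 33.0% of LV-absent matches and in 45.6% of all-7 matches. The LV-only share lay above those of the single-tissue peaks of other tissues, 26.1% to 30.5%. The LV-absent share lay below those of the sites absent from another tissue, 35.6% to 46.4%. DNA methylation was not measured in these libraries.

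LV-only peaks lay closer to genes than LV-absent sites did. The median distance to the nearest start of transcription (TSS) of protein-coding genes was 11.5 kb for LV-only peaks, against 12.1 to 26.1 kb for single-tissue peaks elsewhere and 16.1 kb for all-7 sites. It was 30.8 kb for LV-absent sites, against 11.1 to 19.1 kb for sites absent from another tissue. LV-absent sites were also frequent right at promoters. Within 1 kb of a TSS lay 20.2% of them, compared with 7.32% of LV-only peaks, 13.3% of all-7 sites and 5.88% to 16.6% of sites absent from another tissue.

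Short words of 7 kinds of liver and blood transcription factors were counted on both strands in the 300 bp around each peak summit. The word AGATAA, bound by the GATA factors of red cell and other lineages, was present in 16.1% of LV-only peaks (537 of 3345). It was present in 12.9% of all-7 sites, 10.8% to 14.99% of single-tissue peaks elsewhere, 13.3% of LV-absent sites and 11.2% of 32851 promoters of the same length. Among the 164 LV-only peaks with a fold enrichment of at least 8, a limit set after the values were seen, 41 (25%) held it. The KLF word CCACACCC was in 3.05% of LV-only peaks and 5.49% of the 164, compared with 1.71% to 2.60% of single-tissue peaks elsewhere and 3.56% of promoters. The hepatocyte words for FOXA factors (TGTTTAC) and HNF4 (CAAAGTCCA) were in 3.17% and 0.448% of LV-only peaks, both within the ranges of the other tissues, 2.74% to 3.92% and 0.299% to 0.685%. The CEBP word TTGCNNAA (9.36%, others 8.13% to 12.8%) and the E-box CAGCTG (15.3%, others 12.9% to 17.2%) lay within those ranges too. The RUNX word TGTGGTTT was in 2.54%, against 1.94% to 2.33%. A match is a description of the letters and not evidence of binding, and none of these shares was tested.

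Among the 15 named LV-only peaks, fold enrichment in LV ran from 12.9 to 25.7, and the lists of the 6 others held none of them. The strongest of them, chr8:94984848-94985510 in an intron of Adgrg1, which encodes an adhesion G protein-coupled receptor, had a value of 25.7 and lay 389 bp from a TSS. The second, at 21.3, lay in an intron of Slc25a21, a mitochondrial carrier, 2583 bp from its TSS. The third, at 20.0, lay between genes 74566 bp from Ugcg, which encodes the enzyme that starts glycosphingolipid synthesis.

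A pair of the 15 named peaks lay near Kel, which encodes the Kell blood group protein of red cells. The peak at chr6:41728093-41728800 lay 24108 bp from its TSS and had a value of 19.7, and the peak at chr6:41702878-41703346 lay in an intron of Kel, 1227 bp from the TSS, with a value of 18.5. Others lay near Tspan32, a tetraspanin of blood cells (2067 bp from the TSS, 16.6), Rbm38, an RNA-binding protein (15747 bp, 16.4), and within Hk1, the hexokinase gene used by red cells (1345 bp, 12.9). The nearest genes of the remainder were Notch3 (19.4), Bmp4 (18.8), Man1a2 (18.5), Fbxl22 (18.5), Lancl2 (15.02), Ppp1r42 (14.4) and Ssb (12.9). Of these, the peak nearest to Bmp4 lay 149131 bp away and the peak nearest to Notch3 34578 bp away. 9 of the 15 peaks were in none of the 5 later FB lists.

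The 10 named LV-absent sites had a fold enrichment of at least 14.1 in each of the 6 other tissues and were in all 5 later FB lists. However, the second LV list held 5 of the 10, those nearest to Pou3f3, Pou3f2, Sept9, Fsd1l and Vav3. For several the nearest gene was a neural gene, at distances that were often long. The site 885320 bp from Pou3f3, a POU-domain factor of neural cells, had values of 18.3 in FB, 27.1 in MB, 19.7 in HB, 23.0 in NT, 24.3 in LM and 20.2 in CF. The site 10852 bp from Pou3f2, a related neuronal factor, had 19.1 in FB, 16.9 in MB, 16.1 in HB, 15.8 in NT, 17.96 in LM and 16.0 in CF. The site 70607 bp from Map2, a microtubule protein of dendrites, ran from 16.2 to 20.3. The values of LM and CF lay inside the range of the 4 neural tissues at each of these 3 sites.

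The nearest genes of the other named LV-absent sites included Phactr1 (15.9 to 25.8 over the 6 tissues) and Pcdh15, a protocadherin (14.8 to 28.7). Further ones were Sept9, a septin (14.7 to 19.3), Ttll7, a tubulin-modifying enzyme (14.4 to 21.1), and Fsd1l (14.4 to 15.9). The last were Cntnap4, a contactin-associated protein (14.2 to 19.3), and Vav3, a guanine nucleotide exchange factor (14.1 to 20.5). The Sept9 site lay 1338 bp from a TSS, in an intron of that gene, and the Pcdh15 site in an intron 152049 bp from its TSS. The sites nearest to Cntnap4, Vav3 and Ttll7 lay 221552, 158768 and 97790 bp away. The site nearest to Phactr1 lay 57060 bp away, and that nearest to Fsd1l 37073 bp away, in an intron of Slc44a1.

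**Figure D2:**
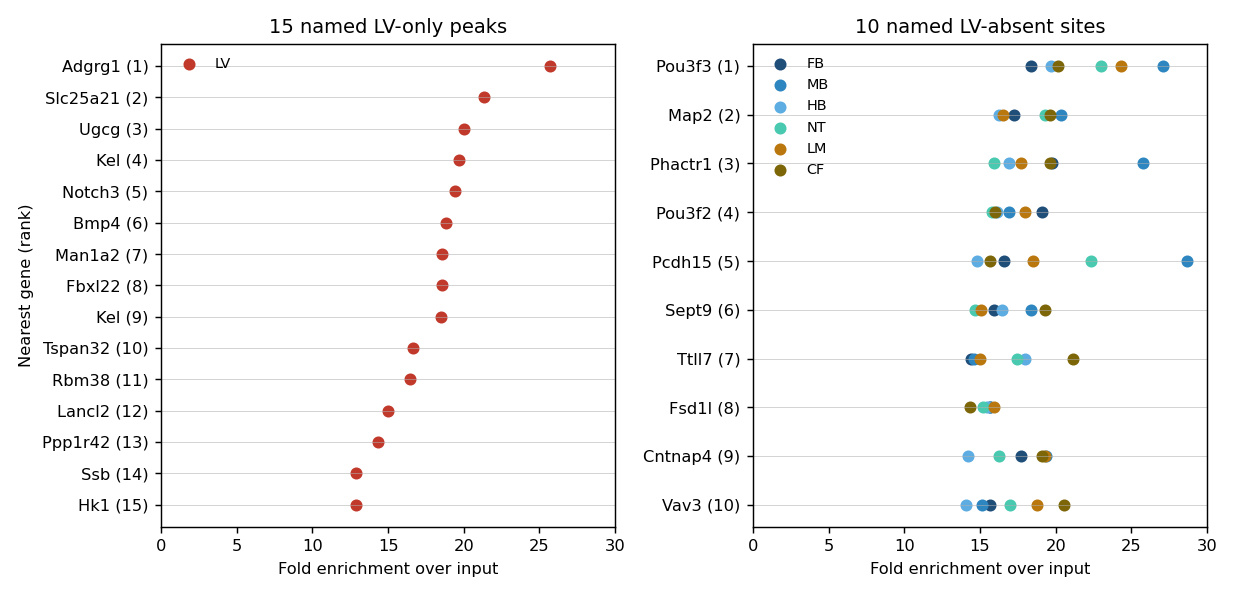
Fold enrichment over input (x axis) of the 15 named LV-only peaks (left) and the 10 named LV-absent sites (right), 1 row per site with its nearest gene and rank, 1 point per tissue that lists it. The left panel holds LV points only, from 12.9 to 25.7, and the right panel 6 points per row, none below 14.1.

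Erythroid genes had the highest share of LV-only peaks among the gene lists. An LV-only peak lay within 50 kb of a TSS of 30 of 41 erythroid genes (73.2%), compared with 26.2% of all 21829 protein-coding genes. Peaks found only in another tissue lay within 50 kb of 2 (FB) to 9 (NT, LM) of the same 41 genes. The erythroid list was written with earlier results of these data known, and its share is a description beside the share of all genes. The highest peaks were near Kel (19.7), Hemgn, a nuclear protein of blood cells (9.87, 1.33 kb from its TSS), Epb42, a membrane skeleton protein of red cells (9.52, 2.57 kb), and Gata1, the master regulator of red cell development (8.67, 0.084 kb). Gata1 had 5 LV-only peaks within the window. LV-absent sites lay near 4 of the 41 (9.76%, against 10.9% of all genes).

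Hepatocyte genes had LV-only peaks at the share of all genes, 11 of 40 (27.5%). The strongest lay near Trf, transferrin (7.10), Apoa2, an apolipoprotein (6.26), and the clotting factor genes F2 and F10 (5.68 each). Against 10.9% of all genes, LV-absent sites lay near 9 of the 40 hepatocyte genes (22.5%). They included Ambp (12.2, 26.95 kb away), Foxa3, a hepatocyte transcription factor (7.42), and 1 shared site near Apoa1, Apoa4 and Apoc3 (6.86). Here and for the following lists the value of an LV-absent site is the lowest of the 6 tissues. The same apolipoprotein genes also had an LV-only peak, 0.144 kb from Apoa1 (5.38).

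Genes of the other tissues showed the opposite order of the classes. Over all genes, LV-only peaks lay near 26.2% and LV-absent sites near 10.9%. No LV-only peak lay near any of 30 neural transcription factor genes, where single-tissue peaks of the others lay near 6.67% (CF) to 26.7% (MB, LM). LV-absent sites lay near 7 of the 30 genes (23.3%). These included Pou3f2 (15.8), Myt1l, a neuronal factor (9.26), and Eomes, a factor of cortical intermediate progenitors (5.95, 0.215 kb from its TSS). Neuronal genes had LV-only peaks in 2 of 26 (7.69%). This low share was not particular to LV. LM-only and CF-only peaks lay near 7.69% and 3.85% of these genes, against 20.2% and 20.1% of all genes. The shares of FB-only, MB-only, HB-only and NT-only peaks were 7.69%, 23.1%, 42.3% and 23.1%. LV-absent sites lay near 9 of the 26 (34.6%), among them Gria2, a glutamate receptor subunit (8.00), and Snap25, a component of vesicle fusion (7.09). Limb and face mesenchyme genes had LV-only peaks in 5 of 35 (14.3%), and single-tissue peaks of the others in 0% (FB) to 48.6% (LM). LV-absent sites lay near 9 of the 35 (25.7%). The highest were near Msx1 (11.2), Hand2 (9.49), Msx2 (7.65) and Twist1 (6.90), all of them transcription factors of mesenchyme.

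LV-absent sites lay near 8 of 19 imprinted genes (42.1%), which are expressed from 1 parental allele, against 10.9% of all genes. Some of the 8 genes share a site. LV-only peaks lay near 3 of the 19 (15.8%), against 26.2% of all genes. The LV-absent sites included one 0.099 kb from a TSS of Mest (8.54) and one near Snrpn (5.86). Another lay near both Peg3 and Zim1 (5.55), and another near Dlk1 (5.28). Housekeeping genes had LV-only peaks in 11 of 22 (50.0%) and LV-absent sites in 0 of 22. Single-tissue peaks of the others lay near 9.09% to 36.4% of the same housekeeping genes. Gpi1 (6.16), Rab7 (5.68), Chmp2a (5.09) and B2m (4.73) had the highest. Blood progenitor and white cell genes had LV-only peaks in 9 of 30 (30.0%) and LV-absent sites in 4 of 30 (13.3%). Both shares were near those of all genes. The highest LV-absent site lay 1.48 kb from Meis1, a homeobox factor of blood stem cells and of neural and limb tissue (10.4). Endothelial and stellate genes had LV-only peaks in 3 of 18 (16.7%) and LV-absent sites in 2 of 18 (11.1%).

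**Figure D3:**
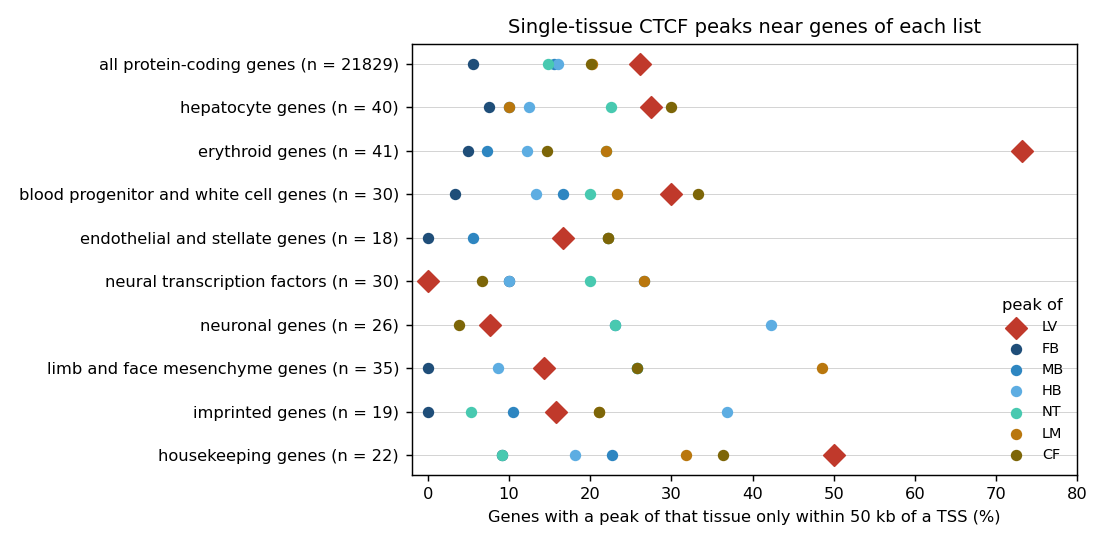
Share of the genes of each list (x axis, %) with a CTCF peak of 1 tissue only within 50 kb of a TSS, for LV-only peaks (diamonds) and the single-tissue peaks of the 6 other tissues (circles, which cover each other where values are equal). The LV diamond of the erythroid list lies at 73.2%, and its circles lie at 22.0% or less.

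Contacts were examined next, since PLAC-seq calls were not used to choose the sites. An interaction is a called pair of 10-kb bins, and a called pair needs an H3K4me3 peak at one end or both. Per the paper, these peaks were of the same tissue, apart from its own comparisons across tissues. A pair called in one tissue might therefore have been untestable in another. Which bins were testable in LV was not examined, so fewer contacts and a missing H3K4me3 peak cannot be told apart here. The 2 LV libraries had 15016 and 11396 interactions and the 12 others 12461 to 33700. LV is therefore at the low end, so shares were set against bins that hold all-7 sites only. The tissue label was checked through the interactions of marker genes. Ank1, an anchor of the red cell membrane skeleton, had 7 and 6 interactions in LV and 0 in each of the 12 others. Rbp4, a retinol carrier secreted by hepatocytes, had 3 and 1 in LV and 0 elsewhere. The neural markers Pax6, Sox2, Myt1l and Neurod1 and the mesenchymal markers Prrx1, Twist1, Msx1 and Dlx5 had 0 in both LV libraries. Hepatocyte markers were near 0 even in LV. Alb and Hnf4a had 0 interactions in all 14 libraries, and Apoa2 had 3 and 3 in LV and 2 to 5 elsewhere.

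Bins with LV-only peaks were ends of interactions more often in LV than in any other tissue. Of 1390 autosomal bins that held LV-only peaks and no other CTCF site of the 7 lists, 17.4% and 14.6% were ends in the LV libraries. In the 12 others the share ran from 4.89% to 12.4% with a median of 9.28%. Both LV values lay above all others although LV had fewer interactions than most. Relative to the share of the 17024 all-7 bins, the ratio was 0.914 and 0.958 in LV and 0.303 to 0.422 in the others. The difference of the log2 ratios was 1.37, or 2.58-fold, with means of -0.10 in LV (n = 2) and -1.46 ± 0.14 (SD, n = 12) in the others, and the 2-sided exact permutation p was 0.011. This is the smallest p that 91 splits allow, and with either LV library left out no split can give a p below 0.0769, in this test and the next. The libraries come from 7 tissues, however, and a permutation of tissues cannot go below 1 in 7. Single-tissue peaks of the others gave smaller contrasts of the same kind, from 1.14-fold in CF to 1.31-fold in LM.

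Bins with LV-absent sites were ends less often in LV than in any other library. Of 1510 such bins, 5.83% and 3.91% were ends in LV and 11.9% to 26.0% in the others, with a median of 17.4%. The ratio to all-7 bins was 0.306 and 0.256 in LV, against 0.676 to 0.85. The log2 difference was -1.43 (0.371-fold; -1.84 in LV, n = 2, and -0.40 ± 0.11 in the others, SD, n = 12; 2-sided exact permutation p = 0.011, the smallest possible). For sites absent from another tissue alone the same fold ran from 0.742 in LM to 1.00 in HB. Protein-coding TSSs were about equally frequent in the classes, in 19.8% of LV-only bins, 20.5% of LV-absent bins and 21.9% of all-7 bins. Among bins without such a TSS, neither class had LV values that overlapped those of the others.

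**Figure D4:**
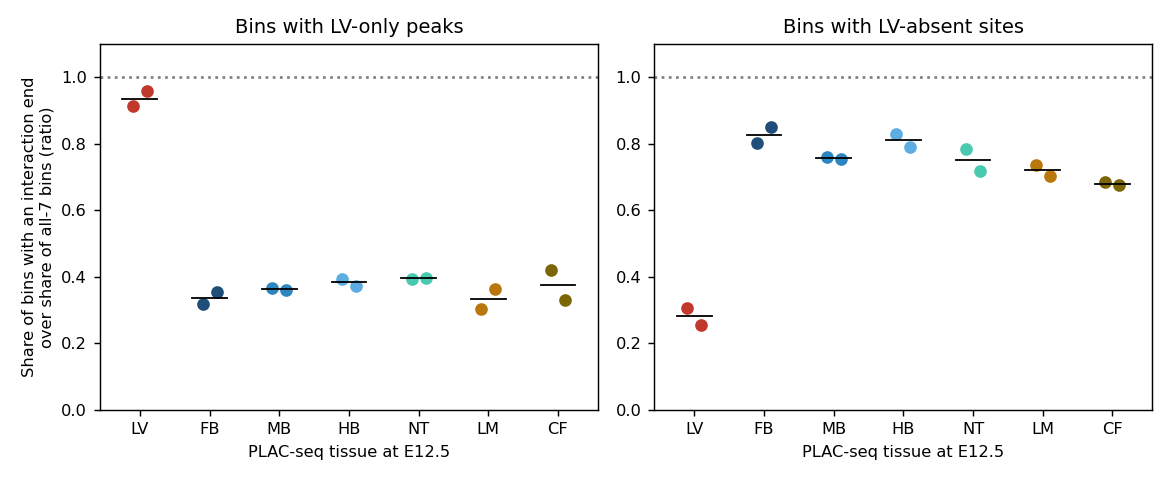
Share of bins with LV-only peaks (left) or LV-absent sites (right) that are an end of an interaction, divided by the share of all-7 bins (y axis, ratio), for each PLAC-seq tissue at E12.5. Points are the 2 libraries of a tissue and lines their mean. LV lies at 0.914 and 0.958 on the left, above all other libraries, and at 0.306 and 0.256 on the right, below all of them.

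Counted bin by bin, 49 LV-only bins (3.53%) were ends in both LV libraries and in none of the 12 others. This compared with 0.896% of all autosomal bins with a CTCF site and 1.00% of all-7 bins. In the LV-absent class 0 of 1510 did so. The opposite pattern, no end in LV and an end in at least 6 others, was found in 195 LV-absent bins (12.9%) and 27 LV-only bins (1.94%). It was found in 8.84% of all bins with a CTCF site and in 10.3% of all-7 bins, so the LV-absent share was not far above the reference class. An end in all 12 others and none in LV was found in 37 LV-absent bins (2.45%) and 2 LV-only bins, with 1.09% of all bins and 1.35% of all-7 bins. At the named sites contacts were sparse. The bin of the site nearest to Pou3f3 had 3 to 16 interactions in each of the 12 others and 0 in both LV libraries. The bin of the Pou3f2 site had 2 to 12 in the 8 neural libraries and 0 in LV, LM and CF alike. Among the named LV-only peaks, the bin nearest to Lancl2 had 1 and 2 in LV and 0 elsewhere. That nearest to Ugcg had 3 and 0 in LV and 0 elsewhere, and the bin of the Adgrg1 peak had 0 in LV.

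The motif has a direction, and at all-7 bins interactions followed it in every library. Where the bin held forward motifs only, 83.2% and 83.1% of the partners lay downstream in LV. With reverse motifs the shares were 17.4% and 18.2%, a difference of 65.8 and 64.8 percentage points, and the others ranged from 56.4 to 66.2. LV-only bins showed a smaller difference. In LV it was 25.4 and 21.4 points, from 160 and 124 interactions at forward and 165 and 134 at reverse bins. In the others it ran from 4.49 to 32.1 points with fewer interactions, 29 to 97 per class. LV exceeded the mean of the others by 6.43 points (23.4 against 17.0 ± 8.8, SD, n = 12; 2-sided exact permutation p = 0.319), within the spread of the other libraries. The sign turned to -1.89 points with equal numbers of interactions per library and to -4.59 points among bins without a TSS. With bins from the second lists the difference was 21.1 points (2-sided exact permutation p = 0.011).

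LV-absent bins differed in direction. The difference was 3.96 and -14.2 points in the LV libraries and 4.83 to 27.1 points in the others, so that LV lay below all 12. The gap to the mean of the others was -24.8 points (-5.10 against 19.7 ± 6.9, SD, n = 12; 2-sided exact permutation p = 0.011, the smallest possible). The LV values rest on 73 and 49 interactions at forward and 84 and 51 at reverse bins, and the nearest other library was CF replicate 1, at 4.83 points. Without LV replicate 2 the gap was -15.7 points and without LV replicate 1 it was -33.9. With bins from motif peaks only, the lowest of the 12 others, 0.327 points, lay below LV replicate 1, at 1.36.

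**Figure D5:**
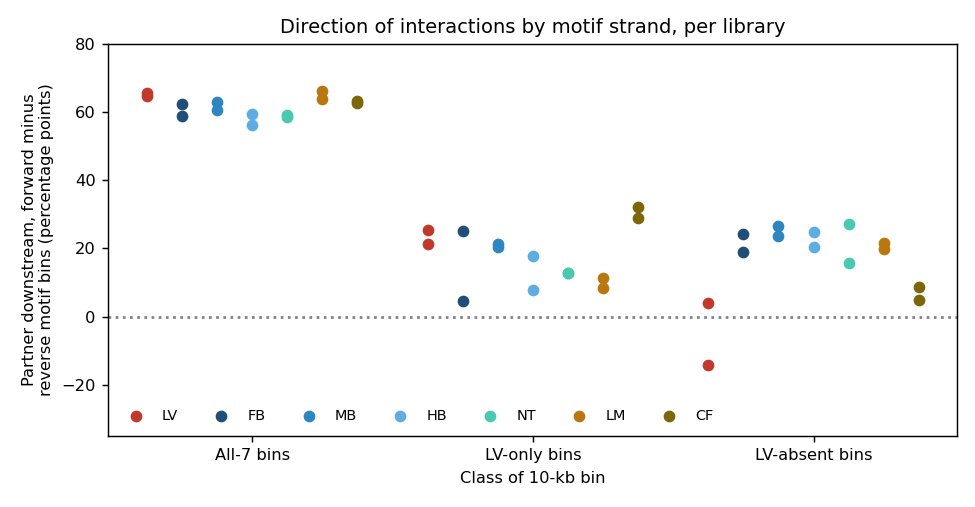
Percentage of interactions with the partner downstream at bins with forward motifs minus that at bins with reverse motifs (y axis, percentage points), for the 3 classes of bins and each PLAC-seq library (points, coloured by tissue). All-7 bins lie between 56.4 and 66.2 points in all libraries, and at LV-absent bins the LV points, 3.96 and -14.2, are the lowest.

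Genes with a site of either class in a TSS bin were compared for their number of interactions, scaled to the library total, with limma on log2(number + 1). Over all genes, 964 of 4303 tested (22.4%) had more interactions in LV than in the mean of the others and 1222 (28.4%) had fewer, at an adjusted p of at most 0.05. Of the 997 autosomal genes with an LV-only peak in a TSS bin, 340 passed the filter on low numbers, and 140 of these (41.2%) had more interactions in LV and 51 (15%) fewer. Of 710 genes with an LV-absent site, 279 were tested, of which 30 (10.8%) had more and 166 (59.5%) fewer. The median log2 difference was 0.68, -1.23 and, for all genes tested, -0.11. A further fit kept an equal number of interactions from each library, those of lowest FDR. In it, 77 of 203 genes with an LV-only peak (37.9%) had more, with 20.4% of all genes tested. Of 228 genes with an LV-absent site, 141 (61.8%) had fewer, with 32.4% of all genes tested. The filter favours genes that are high in one group. Of the 166 lower genes with an LV-absent site, 115 had a scaled mean under 1 in LV. These passed the filter through the other tissues alone, which fixes their direction. Over all genes this held for 987 of the 1222 lower genes. Of the 140 higher genes with an LV-only peak, 51 had a scaled mean under 1 in the other libraries. Among the 283 genes with an LV-only peak and a mean of at least 1 there, a restriction made after the data were seen, 89 (31.4%) were higher in LV, with 16.8% of all genes so restricted. Without scaling, the median of all genes moved to -0.59, and the share of calls that were higher in LV was 18.4% in place of 44.1%, and without the filter it was 57.6% (1285 higher and 945 lower), so the order of the 2 directions depends on the filter. Both directions together gave 2186 genes, and the fits gave 1284 without LV replicate 1 and 982 without LV replicate 2.

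The named genes with an LV-only peak in a TSS bin had more interactions in both LV libraries than in any other library. All 10 had a scaled mean under 1 in the other libraries and so passed the filter through LV alone, which fixes their direction, and they are given with no test. Sptb, the beta spectrin of the red cell membrane, had 6 and 6 interactions in LV and 0 in each of the 12 others. Hemgn had 3 and 6 and Hbq1a, a globin gene, likewise 3 and 6, against 0 in the others. Adam10, a membrane protease, had 18 and 18, against 0 to 4 with a median of 0.5. Cd47, which protects red cells from phagocytosis, had 8 and 6, against 0 to 2. The others were Armc9 (9 and 5 in LV, at most 1 elsewhere), Ifi47 (11 and 13, at most 1), Olfr56 (9 and 9, at most 1), Emilin2 (3 and 7, 0) and Rab3il1 (4 and 6, at most 1). Genes whose TSSs share a bin share its interactions.

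The named genes with an LV-absent site in a TSS bin had few or no interactions in LV. Mex3b, an RNA-binding protein, had 2 and 1 interactions in LV and 26 to 59 in the others, with a median of 36 (log2 difference -3.48 ± 0.20 (SE); limma, adjusted p = 2.6e-08). Tfap2a, a neural crest factor, had 0 in LV and 3 to 26 elsewhere, Kcnma1, a potassium channel, 0 and 3 to 20, and Runx1t1, a transcriptional repressor, 0 and 6 to 49. These 3 genes, and Adgrb1 below, had 0 in both LV libraries and so passed the filter through the other tissues alone. This fixes their direction, and they are given with no test. All named genes of this class were chosen for a low adjusted p. Adgrb1, an adhesion receptor of neurons, had 0 in LV and 20 to 43 in the 8 neural libraries. It also had 0 in LM and 4 and 8 in CF, so that both LV and LM were at 0.

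Among the lists, 16 erythroid genes passed the filter and 11 of them had more interactions in LV, with 0 fewer, where 22.4% of all genes tested had more and 28.4% fewer. Of the 11, 6 passed the filter through LV alone, and with equal numbers of interactions 6 of 8 had more. Those with an LV-only peak within 50 kb included Ank1 (above) and Ermap, a red cell adhesion protein (8 and 8 in LV, 0 to 3 elsewhere). Hbb-bt, an adult beta globin, had 4 and 6 in LV and 0 elsewhere. Kel, Epb42, Rhd, Tspo2 and Trim10 had LV-only peaks within 50 kb and 0 interactions in all 14 libraries. Of hepatocyte genes, 14 were tested, with 4 higher (28.6%, near the share of all genes) and 1 lower, and with equal numbers 3 and 1 of 11. Of 26 neural transcription factor genes tested, 24 had fewer interactions in LV and 0 more, and with equal numbers 23 of 25 had fewer. Of the 24, 17 had a scaled mean under 1 in LV. These passed the filter through the other tissues alone, which fixes their direction. Of 30 limb and face mesenchyme genes 23 had fewer and 1 more, and with equal numbers 23 and 0 of 29. In the first of these fits, 18 of the 23 lower genes likewise passed the filter through the other tissues alone.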

How the data were processed

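CTCF ChIP-seq and H3K4me3 PLAC-seq of 7 mouse tissues at E12.5 were used. Per the labels the build is mm10 and the tools include BWA and MACS2. The authors pooled the libraries of a tissue, called relaxed peaks with MACS2 and kept those that overlapped peaks of both libraries. Each deposited peak carries the fold enrichment over input, a ratio to input DNA, and −log10 of p and q as MACS2 gave them. Read depth is not given in the lists and was not used. From PLAC-seq, the authors deposited the count of read pairs and the FDR, a q-value, of each pair of 10-kb bins called with MAPS on autosomes at 20 kb to 1 Mb, per library and pooled. The authors' pooled calls served as an alternative only.

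Sites were merged with Python 3.11.15 (numpy 2.4.6, pandas 2.3.3). TSSs are those of GENCODE M21 protein-coding genes on GRCm38. The motif matrix (19 bp, threshold 0.0001) was estimated from 5000 random all-7 sites on odd-numbered autosomes, around the LV summit. Words were counted in 300 bp around the summit of the peak of highest fold enrichment, and in RefSeq promoters. Bins counted as a class held sites of that class only. Contact measures were compared by exact permutation of 2 LV and 12 other libraries (91 splits). Numbers of interactions per gene were fitted with limma (limma 3.58.1, R 4.3.3, trend option, 1 mean per tissue, mean of at least 1 after scaling to the median total, pseudocount 1, Benjamini-Hochberg). On simulated numbers with 4-fold changes in 200 of 4293 genes, 113 were recovered and 28 of 141 calls were false, 27 of them lower in LV. With simulated numbers thinned at random to equal totals per library, 6 of 75 calls were false. In the data, equal numbers were instead the interactions of lowest FDR in each library, so this rate need not hold there. Counts of calls are given under both fits. Same-numbered PLAC-seq replicates did not deviate together. Named were the 15 LV-only peaks with a motif and the highest fold enrichment, the 10 LV-absent sites with a motif and the highest minimum (chromosome 18 left out of both), at most 4 genes per list and class by fold enrichment, markers of liver, neural and mesenchymal cells, and the 10 and 5 genes with a site in a TSS bin of lowest adjusted p. Beyond that rule, the erythroid genes given for their interactions and the LV-only peak at Apoa1 were named after their values were seen. The members and gene lists were chosen with earlier results of these data known. Alternatives used the second deposited lists, stricter peak thresholds, other overlaps and windows, and fewer lists or libraries. Some genes that the rule for named genes selects are not reported here.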

Additional observations from a re-analysis of the deposited data

How the results depend on the processing

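LV had more absent sites than every other tissue under the 12 alternatives computed for all tissues, 1937 to 2967. The gap was smallest with the second lists, 2061 against 149 to 1455. The overlap of 0.5 of the shorter peak was computed for LV only (2447). LV-only peaks numbered 2134 with a fold enrichment of at least 5 and 1942 with motif peaks only. Their ratio of medians was 0.245 in the second lists, 0.300 with a −log10 q of at least 2, 0.356 with a fold enrichment of at least 5, 0.300 with peaks extended by 250 bp and 0.310 with 43000 peaks per list, where LV-absent sites gave 0.501 (0.527 with at least 5). The direction difference at LV-only bins was -1.89 points with equal numbers of interactions, -4.59 points in bins without a TSS (both reversed, p = 0.879 and 0.505, exact permutation) and 21.1 points with the second lists (exact permutation p = 0.011), so its sign and its call depend on the setting. The cause was not tested. With pooled calls the log2 difference at bin ends was 0.85 for LV-only and -1.17 for LV-absent bins. In members of at least 6, a limit chosen after seeing the data, it was 1.90 and -2.15.

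Leaving out 1 library, the log2 difference ran from 1.33 to 1.40 at LV-only bins and from -1.56 to -1.30 at LV-absent bins, and the direction difference from 4.47 to 8.39 and from -33.9 to -15.7 points. With a single LV library the smallest possible exact permutation p is 0.0769, so no call could be made there. Genes with a different number ranged from 982 (without LV replicate 2) to 2250, higher from 321 to 1005 and lower from 661 to 1245, and were 1284, 522 and 762 without LV replicate 1. With equal numbers of interactions 1453 genes were called, 561 of them higher, and without scaling 316 were higher. Of the listed genes, 47 had an LV-only peak within 20 kb.

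Replicate numbers did not pair the libraries: over 21 pairs of tissues the correlation of deviations ran from -0.0715 to 0.0452. With the replicate block the exact permutation p was 0.0204 for both classes of bin ends and for the direction at LV-absent bins, and 0.347 for that at LV-only bins. The block gave 2139 genes, 943 higher and 1196 lower, and no call of the contact results changed. The LV list rests on technical replicates of 1 sample, read depth per peak is unknown, and 0 called interactions do not show that contacts are lacking.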
